A study of Drosophila melanogaster with 7 samples.

Results

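The genes that decide between female and male development in *Drosophila melanogaster* were examined in whole first-instar larvae that carry a mutation in *pof*. They were *Sxl*, *tra*, *tra2*, *dsx*, *ix*, *fru*, *her*, *fl(2)d* and *vir*, chosen by name. The members were all array probe sets whose gene symbol is 1 of these 9, which gave 13 of the 13966 probe sets tested, and 9 of the 10844 genes they name. *Sxl* had 2 probe sets, *fru* had 4 and each other gene had 1. The *Pof* protein binds nascent RNA along chromosome 4. The groups were pof mutant larvae (4 pools) and wild-type larvae (3 pools), each pool holding 400 larvae of mixed sex and hybridised to 1 single-colour Affymetrix array as polyA RNA. Neither the *pof* allele nor the strain of either stock is stated in the labels. The submitters call the pools biological replicates.

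In females the higher dose of X-linked products switches on *Sxl*, whose protein binds RNA, keeps its own gene in the productive splicing pattern and directs the splicing of *tra*. Tra and Tra2 together set the splicing of *dsx* and *fru*, so that each sex makes its own forms of the Dsx and Fru transcription factors. In males Sxl protein is absent, *msl-2* is translated and the X chromosome is dosage compensated. Most of this control acts on splicing and translation, and which splice forms each probe set binds is not known here.

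The arrays had median log2 expression of 6.01 to 6.06, which quantile normalization of the deposited values brings close together. The arrays differed in the balance between transcript ends. Averaged over the GAPDH, eIF-4a and actin controls, the signal of the 3' end exceeded that of the 5' end (the 3' minus 5' difference) by 3.22, 3.95, 2.12 and 2.19 (log2) on pof mutant replicates 1 to 4, and 4.32, 2.02 and 1.92 on wild type replicates 1 to 3. The *Pof* probe set (141415_at), near the floor of the array, read 3.43, 3.43, 3.50 and 3.41 in the mutant and 3.90, 3.77 and 3.64 in wild type, so the groups did not overlap, but the difference of -0.33 ± 0.08 (SE) did not pass the threshold (limma, adjusted p = 0.323). Whether its probes lie inside or outside the mutated stretch is not given. The 2 measured muscle markers had mean log2 signals of 9.13 and 13.32 and the 3 gut markers of 10.37 to 12.41, and values of the gut markers by group are given after the members. The male-specific roX RNAs were not measured here, so the labelled sex mixture could not be checked by them.

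The probe sets of the sex determination genes gave similar signals in pof mutant and wild-type larvae. No difference between the groups passed the test. Of the 13 probe sets, 0 passed the threshold of limma's test (adjusted p under 0.05 over all 13966 probe sets), where 0.0644% of all probe sets passed. At an unadjusted p under 0.05 the count was again 0 of 13, against 5.43% of all probe sets. The 2 groups of arrays overlapped for all 13, and for 6.0% of all probe sets they did not (2.79% with every mutant array lower, 3.21% with every mutant array higher). With shares this small, counts of 0 among 13 do not set these probe sets apart from the rest. In the mutant, 6 had means above wild type and 7 below it, and the differences ran from -0.14 to 0.03 on the log2 scale with a median of -0.027, close to -0.02 over all probe sets. The smallest adjusted p was 0.962. The 95% intervals from the same fit all lay between -0.42 and 0.43, so changes in probe set signal beyond 0.747-fold or 1.35-fold lay outside every one of them.

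**Figure D1:**
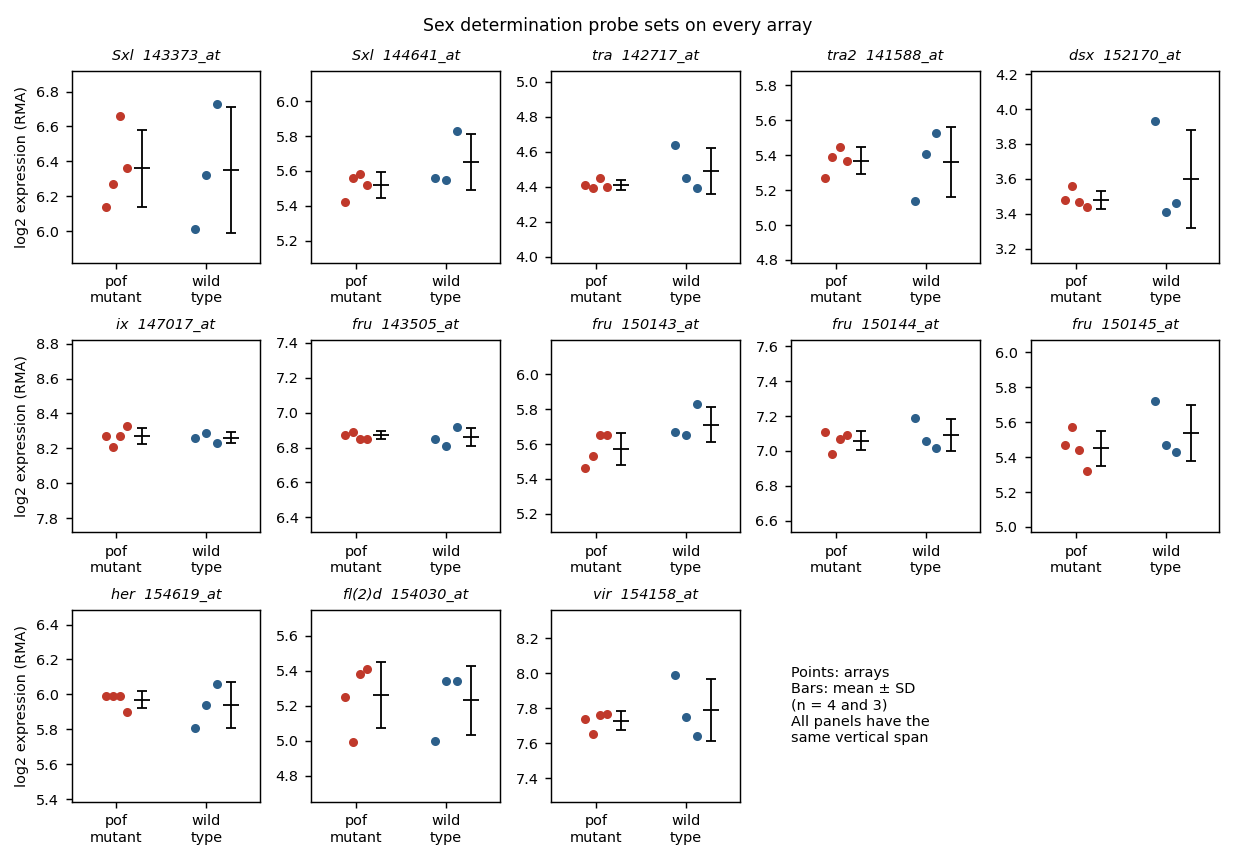
Log2 expression (RMA) of the 13 sex determination probe sets on every array, pof mutant (4 arrays) left and wild type (3 arrays) right, with mean ± SD beside the points and the same vertical span in every panel. The groups overlap in every panel, and wild type replicate 1 (the leftmost wild-type point) is the highest or lowest array in 8 of the 13, as for *dsx* at 3.93.

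**Figure D2:**
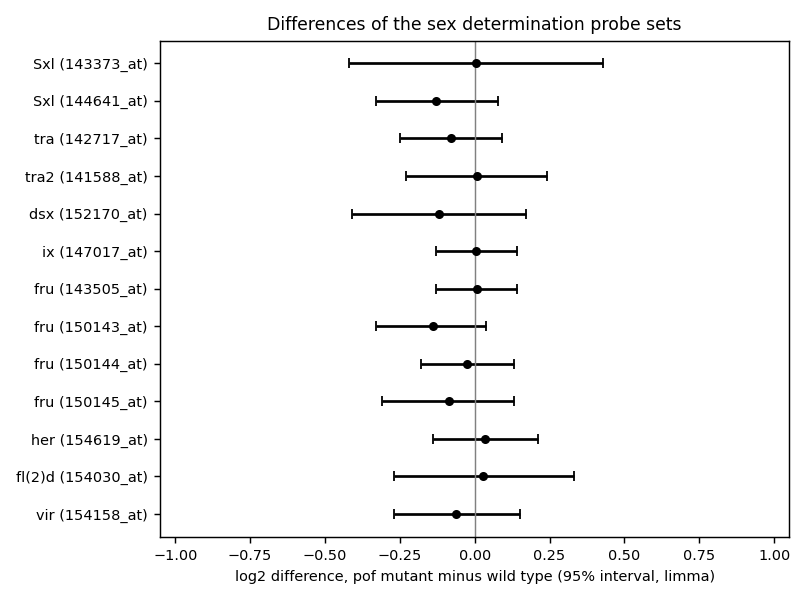
Log2 difference, pof mutant minus wild type, of each probe set, with its 95% interval from limma. All 13 intervals include 0; the widest is that of *Sxl* (143373_at), from -0.42 to 0.43.

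At the top of the cascade, *Sxl* was read by 2 probe sets on the X chromosome gene. The first, 143373_at, had log2 values of 6.14, 6.27, 6.66 and 6.36 in the mutant and 6.01, 6.32 and 6.73 in wild type. The wild-type arrays held both the lowest and the highest of the 7 values, and mutant larvae averaged 6.36 ± 0.22 (SD, n = 4), wild-type larvae 6.35 ± 0.36 (SD, n = 3). Their difference was 0.0042 ± 0.18 (SE; limma, adjusted p = 0.997). The second, 144641_at, read 5.42, 5.56, 5.58 and 5.52 in the mutant and 5.56, 5.55 and 5.83 in wild type. Only wild type replicate 3 stood above all mutant arrays, and the difference was -0.13 ± 0.09 (SE; limma, adjusted p = 0.962), or -0.036 without that array.

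Other genes of the set act on *Sxl*. *her* encodes a zinc finger protein needed for *Sxl* activation in the embryo. It read 5.99, 5.99, 5.99 and 5.90 in the mutant and 5.81, 5.94 and 6.06 in wild type, with the mutant arrays inside the wild-type range and a difference of 0.033 ± 0.08 (SE; limma, adjusted p = 0.974). *fl(2)d* and *vir* encode partners in the complex that methylates adenosines in mRNA, and both are needed for female splicing of *Sxl*. *fl(2)d* had 5.25, 4.99, 5.38 and 5.41 in the mutant and 5.0, 5.34 and 5.34 in wild type, with 1 array near 5 in each group and a difference of 0.029 ± 0.13 (SE; limma, adjusted p = 0.985). *vir* was at 7.74, 7.65, 7.76 and 7.77 in the mutant and at 7.99, 7.75 and 7.64 in wild type. The wild-type values again lay on both sides of the mutant values, with a difference of -0.062 ± 0.09 (SE; limma, adjusted p = 0.967).

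The splicing factors of the middle of the cascade were as close. *tra*, whose functional protein is made in females, had 4.41, 4.39, 4.45 and 4.40 in the mutant and 4.64, 4.45 and 4.39 in wild type. All arrays but wild type replicate 1 lay between 4.39 and 4.45, and the difference was -0.08 ± 0.07 (SE; limma, adjusted p = 0.962), or -0.0068 without that array. The *tra* signal was low, at percentile 18.0 of the array, so a change of *tra* could be larger than these values show. *tra2*, which encodes the RNA-binding partner present in both sexes, had 5.27, 5.39, 5.45 and 5.37 in the mutant and 5.14, 5.41 and 5.53 in wild type. It averaged 5.37 ± 0.08 (SD, n = 4) in mutant larvae, against 5.36 ± 0.20 (SD, n = 3) in wild-type larvae (limma, adjusted p = 0.992).

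At the end of the cascade stand the transcription factors and a cofactor. *dsx*, which encodes a DMRT-type factor with a female and a male form, read 3.48, 3.56, 3.47 and 3.44 in the mutant and 3.93, 3.41 and 3.46 in wild type. All arrays but 1 lay between 3.41 and 3.56, and wild type replicate 1 stood above them. The difference was -0.12 ± 0.12 (SE; limma, adjusted p = 0.962) and turned to 0.045 without that array. The *dsx* signal ranked at percentile 4.25 of the array, near its floor, where RMA compresses changes, so a change of *dsx* could be larger than its interval shows. *ix* encodes a Mediator subunit that works with the female form of Dsx. It was nearly constant at 8.27, 8.21, 8.27 and 8.33 in the mutant and 8.26, 8.29 and 8.23 in wild type, and its interval of -0.13 to 0.14 (0.914-fold to 1.1-fold) was among the narrowest.

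*fru* encodes BTB zinc finger factors, some of them made from male-specific transcripts in neurons and others shared by the sexes. Its 4 probe sets gave separate readings. 143505_at was as constant as *ix*, with 6.87, 6.89, 6.85 and 6.85 in the mutant and 6.85, 6.81 and 6.92 in wild type, a difference of 0.0071 ± 0.06 (SE; limma, adjusted p = 0.990). 150144_at read 7.11, 6.98, 7.07 and 7.09 in the mutant and 7.19, 7.06 and 7.02 in wild type, and the difference of -0.027 ± 0.07 (SE) was likewise smaller than its error (limma, adjusted p = 0.976). The 143505_at values spanned 0.11 over the 7 arrays, the narrowest of the 13 ranges, and those of 150144_at spanned 0.21. 150143_at had 5.46, 5.53, 5.65 and 5.65 in the mutant and 5.67, 5.65 and 5.83 in wild type. This probe set had the largest difference and the smallest unadjusted p of the 13, with the groups meeting at 5.65: -0.14 ± 0.08 (SE; limma, unadjusted p = 0.105, adjusted p = 0.962). 150145_at read 5.47, 5.57, 5.44 and 5.32 in the mutant and 5.72, 5.47 and 5.43 in wild type, a difference of -0.086 ± 0.10 (SE; limma, adjusted p = 0.962).

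The ranges over the 7 arrays ran from 0.11 to 0.72 log2 units, with a median range of 0.37, equal to the median over all probe sets. Wild type replicate 1, with the largest 3' minus 5' difference, was the highest or the lowest array for 8 of the 13 probe sets, as it was for 59.0% of all probe sets. In a model with group and that 3' minus 5' difference, 4 of the 13 probe sets (30.8%) had a slope past limma's threshold, close to the 28.1% of all probe sets (15.9% rising and 12.2% falling with the difference). *Sxl* 143373_at fell by 0.21 ± 0.06 (SE) per log2 unit of the 3' minus 5' difference (limma, adjusted p = 0.0441), and *fl(2)d* fell by 0.17 ± 0.03 (adjusted p = 0.00951). *dsx* rose by 0.15 ± 0.04 (limma, adjusted p = 0.0272) and *fru* 150145_at by 0.11 ± 0.03 (adjusted p = 0.0285). The other *Sxl* probe set and the other 3 of *fru* did not pass (limma, adjusted p of 0.314 to 0.902). Without wild type replicate 1, 0 of the 13 passed, and 1 of all 13966 (0.00716%). The count was 1 of the 13 without wild type replicate 3, against 2037 of all 13966. It was 2 of the 13 without wild type replicate 2, against 2467 of all 13966. The slopes without wild type replicate 1 were -0.18 for *Sxl* 143373_at, -0.21 for *fl(2)d*, 0.10 for *fru* 150145_at and 0.052 for *dsx* (limma, adjusted p = 0.443, 0.153, 0.339 and 0.566). *fl(2)d* passed with each of the other arrays left out (limma, adjusted p of 0.0152 to 0.0291).

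**Figure D3:**
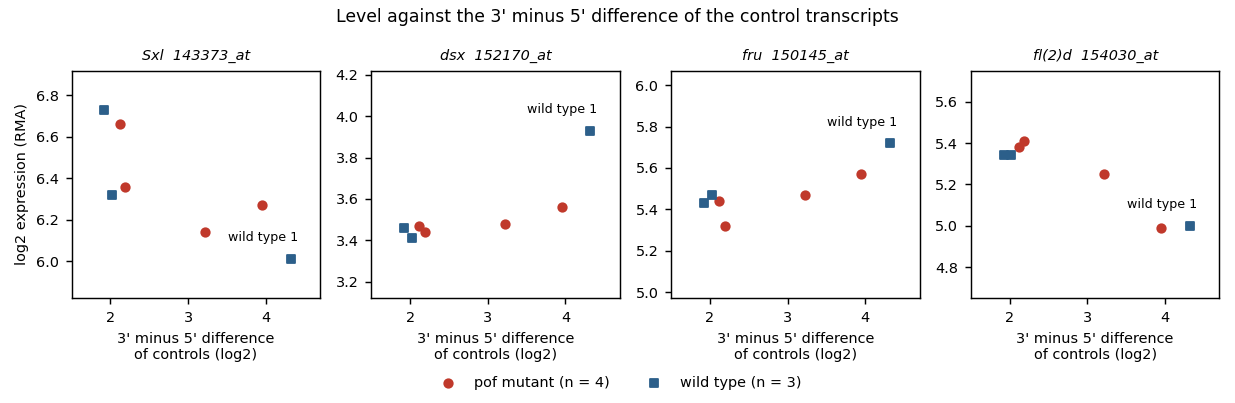
Log2 expression of the 4 probe sets with a slope past limma's threshold on the balance of transcript ends (horizontal axis: 3' minus 5' difference of the controls, log2), with pof mutant arrays as circles and wild-type arrays as squares. Without wild type replicate 1, 0 of the 4 passed. *Sxl* 143373_at and *fl(2)d* are lower, and *dsx* and *fru* 150145_at higher, on the arrays to the right; for *dsx* the array wild type replicate 1 (3.93) stands alone.

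With the 3' minus 5' difference as a covariate, 0 of the 13 probe sets differed between pof mutant and wild type, where 0.616% of all probe sets passed. The smallest adjusted p was 0.375 (limma), that of *fru* 150143_at with a difference of -0.14.

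Among probe sets that averaged at least 6 (log2) and named 1 gene, those that varied most like a member over the 7 arrays were the following, given as a description. *Sxl* 143373_at was most like *wat* (Pearson r = 0.983) and *SNF4Agamma* (0.977). Pearson r does not measure the size of the changes: *wat* spanned 0.1 log2 units and *SNF4Agamma* 0.57, against 0.72 for *Sxl* 143373_at. *vir* was most like *Mgat4a* (0.990) and *Gmppa* (0.984), and *fru* 150144_at most like *AIMP3* (0.984) and *Klp10A* (0.979). *ix* was closest to *eIF2beta* (0.964) and *tty* (0.910), and *fru* 143505_at to *Cpr49Af* (0.952) and *CG14564* (0.923). *ix* and *fru* 143505_at were nearly constant, spanning 0.12 and 0.11 log2 units. The genes named as like them spanned from 0.15 (*tty*) to 0.74 (*Cpr49Af*). Each r came from 6341 or 6342 comparisons across 7 arrays that share the 3' minus 5' differences above. The 2 genes most like *Sxl* were, as *Sxl* itself, highest on wild type replicate 3 and lowest on wild type replicate 1.

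The wider pathway was covered by 6 lists with 39 of 49 genes measured, and 0 of the 39 passed the threshold (limma), with 19 higher and 20 lower in the mutant and a median difference of -0.0021, against -0.019 over all genes. At an unadjusted p under 0.05 there was 1 of 39 (2.56%), *msl-3*, against 621 of all 10844 genes (5.73%). The medians of the lists given below moved with single arrays, and 5 of the 6 changed sign in at least 1 case when each array was left out in turn. Among 6 measured X signal elements and their partners, which set *Sxl* on or off, 4 were higher and 2 lower, with a median of 0.043 (-0.0020 to 0.082 with each array left out). *emc*, an inhibitor of basic helix-loop-helix factors, had 8.58, 8.34, 8.67 and 8.27 in the mutant and 7.45, 8.14 and 8.56 in wild type. Its difference of 0.42 ± 0.24 (SE; limma, adjusted p = 0.962) was 0.11 without wild type replicate 1, its lowest array. *gro*, a corepressor, differed by 0.11 ± 0.14.

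The 5 measured partners of Sxl protein had a median of -0.022 (-0.07 to 0.03 with each array left out), with *snRNP-U1-70K*, a component of the U1 spliceosomal particle, at -0.14 ± 0.08 (SE) and *U2af38*, the small subunit of the factor that recognises the 3' splice site, at -0.091 ± 0.06 (limma, adjusted p = 0.962 for both). Of the 6 measured RNA methylation partners of *fl(2)d* and *vir*, 5 were higher and 1 lower, with a median of 0.028 (0.0052 to 0.06 with each array left out). *Mettl14*, a subunit of the methyltransferase, differed by 0.084 ± 0.07 and *Ythdc1*, the nuclear reader of the methylated base, by -0.17 ± 0.15. With each array left out, the difference of *Ythdc1* ran from -0.28 to -0.024. The 3 measured splicing partners of Tra and Tra2 had a median of -0.073 (-0.23 to 0.011 with each array left out). With the replicate block, which leaves out pof mutant replicate 4, the median was -0.15. The partners included the SR protein gene *B52* (-0.087 ± 0.15) and *Doa*, a kinase of SR proteins (-0.073 ± 0.25).

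Downstream, 7 of 9 dosage compensation genes were measured, 2 higher and 5 lower, with a median of -0.017 (-0.10 to 0.00076 with each array left out). *msl-3* read 5.09, 5.03, 5.23 and 5.20 in the mutant and 5.29, 5.33 and 5.29 in wild type. Every mutant array lay below every wild-type array, as for 2.79% of all probe sets, with a difference of -0.16 ± 0.07 (SE; limma, unadjusted p = 0.0456, adjusted p = 0.905). *mof*, the acetyltransferase of the MSL complex, was at -0.17 ± 0.09 (limma, adjusted p = 0.962), or -0.090 without wild type replicate 1. *msl-2*, the transcript that Sxl protein holds back from translation in females, averaged 6.48 ± 0.04 (SD, n = 4) in mutant larvae, against 6.49 ± 0.04 (SD, n = 3) in wild-type larvae. Of 12 measured *dsx* relatives and targets or partners of *dsx* and *fru*, 5 were higher and 7 lower, with a median of -0.013 (-0.062 to 0.050 with each array left out). *dmrt93B*, which shares the DNA-binding domain of Dsx, differed by -0.12 ± 0.09 and the yolk protein gene *Yp1*, a target of Dsx in adult females, by 0.095 ± 0.07 (limma, adjusted p = 0.962 for both). Without wild type replicate 1, its highest array, *dmrt93B* was at -0.019.

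**Figure D4:**
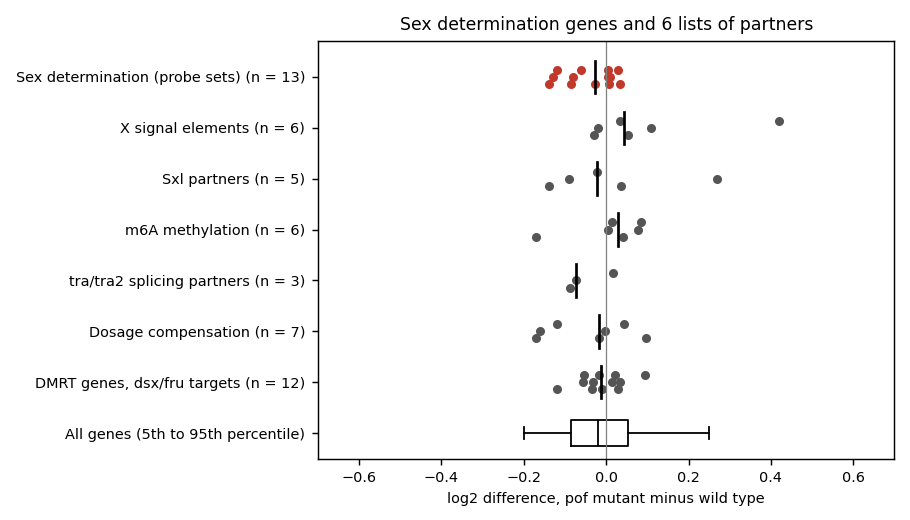
Log2 difference, pof mutant minus wild type, of the 13 sex determination probe sets and of the genes in 6 lists of partners (points, with black bars at the medians), above a box of all genes (whiskers at the 5th and 95th percentiles, -0.20 and 0.25). The members lie between -0.14 and 0.03; *emc* at 0.42 is the farthest point of any list.

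Markers of germ line (7 genes measured), testis (9) and neurons (6), the cells in which several of these genes act, also gave 0 genes past the threshold (limma). Their median differences were -0.027, 0.0045 and -0.031, with 0 genes in any of the 3 lists at an unadjusted p under 0.05. Without detection calls, it is not known whether these markers, those of testis included, were expressed in first-instar larvae. The counts therefore cannot show whether those cells differed between the groups. Muscle (2 measured), fat body (2) and haemocyte (3) markers had medians of 0.21, -0.039 and -0.026, with 0 genes at an unadjusted p under 0.05. Both muscle differences turned sign without wild type replicate 1, from 0.37 to -0.43 for *up* and from 0.055 to -0.14 for *Mlc2*. Of the 3 gut markers, named after their values were seen, 0 passed, but 2 had an unadjusted p under 0.05 and groups that did not overlap. Over all 32 measured cell type markers, these 2 (6.25%) were the only ones at an unadjusted p under 0.05, against 5.73% of all genes. The groups did not overlap for 6.0% of all probe sets. *betaTry*, a trypsin, had 12.27, 11.61, 12.37 and 11.86 in the mutant and 11.01, 10.66 and 10.31 in wild type, every mutant array being higher. Its difference was 1.37 ± 0.22 (SE; limma, unadjusted p = 0.000335, adjusted p = 0.156), and with the 3' minus 5' difference as a covariate it passed (1.36, adjusted p = 0.0464). *Jon25Biii*, a serine protease of the Jonah family, had 12.30, 11.88, 12.40 and 12.08 in the mutant and 12.62, 12.89 and 12.72 in wild type, every mutant array being lower. Its difference was -0.58 ± 0.13 (SE; limma, unadjusted p = 0.00272, adjusted p = 0.323; 0.0792 with the covariate). The third, the trypsin gene *alphaTry*, had 11.08, 9.83, 11.48 and 10.19 in the mutant and 8.95, 10.29 and 10.76 in wild type, with overlapping groups and a difference of 0.65 ± 0.52 (SE; limma, adjusted p = 0.962). The part of these markers in the values of the sex determination genes was not tested. In whole larvae, fewer cells of a type and less RNA per cell cannot be told apart.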

How the data were processed

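The authors deposited log2 values on the RMA scale, as the submitters' processing notes state without a version. In RMA, background is corrected, arrays are quantile normalized and probes are summarised per probe set, so a probe set is comparable between arrays, not with another probe set. Groups came from the sample titles. Probe sets were named by the platform annotation, updated by gene identifier from RefSeq (Release 6), and 44 controls were left out. No low-value filter was applied, and 5 of the 13 member probe sets had a mean of at least 6.

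Limma 3.58.1 in R 4.3.3 (lmFit, eBayes) fitted pof mutant minus wild type over 13966 probe sets with Benjamini-Hochberg adjustment. A second model added the 3' minus 5' difference of control transcripts. Errors and 95% intervals are limma's. For partner lists the probe set with the highest mean stood for a gene. The members, the lists and the 3' minus 5' measure were chosen with earlier results of these data known. All member probe sets are named. From each list up to 2 genes with the smallest p are named, plus *msl-2*, and 3 gut markers were named after their values were seen. The 2 genes most like each member with a mean of at least 6 are named by Pearson r.

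On simulated data over 13966 probe sets, 67.2% of group differences of 0.5 and 94.0% of 1 (log2) were recovered. The simulated noise was the spread left after fitting group and the 3' minus 5' difference, so it lacked variation with that difference. Recovery by the group test on the real arrays can therefore be lower. Alternatives were another quantile normalization, median centring, a replicate block, the 3' minus 5' covariate, eBayes with trend and robust, array weights, a level of at least 6, an adjusted p limit of 0.1 and leaving out each array. The replicate block left out pof mutant replicate 4, since no wild-type array has that number. Its differences therefore equal those with only that array left out. Deviations of same-numbered arrays correlated at 0.245, -0.571 and 0.559, within the -0.621 to 0.69 of differently numbered pairs. No pairing by replicate number was seen, but so few pairs cannot exclude it. The number of arrays limits precision. Figures used matplotlib 3.10.9.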

Additional observations from a re-analysis of the deposited data

Results flagged for a closer look

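Among the 4 mutant arrays, 1 array stood apart by Dixon's test at the 95% level in 2 of 29 probe sets examined, and chance alone flags about 1 in 20, or 1.45 of them. For *her*, pof mutant replicate 4 read 5.90 while the median of the remaining mutant arrays was 5.99. For *Mettl14*, the same array read 6.04 and the median of the rest was 5.91. The wild-type group, with 3 arrays, was not examined in this way.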

How the results depend on the processing

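The count of sex determination probe sets past the group threshold was 0 under every alternative run, including the replicate block (0, smallest limma adjusted p = 0.996) and each array left out, and 0.375 was the smallest adjusted p. The count over all 13966 probe sets was 9, but 0 to 34 with an array left out, 2 with the replicate block, 86 with the covariate and 1200 with array weights, an estimate that stopped before convergence and gave wild type replicate 2 a weight of 17.1. Under array weights 2 list genes passed, *snRNP-U1-70K* (-0.28) and *msl-3* (-0.18), as did *betaTry* (1.41), *Jon25Biii* (-0.69) and *Pof* (-0.33). With the same weights the differences of *tra2* (-0.052), *dsx* (0.051), *ix* (-0.011), *fru* 150144_at (0.020), *fl(2)d* (-0.038) and *Yp1* (-0.015) turned sign. *ix* also turned to -0.027 after another quantile normalization, its 3' minus 5' slope to 0.056, and with the replicate block *ix* was -0.015 and *fl(2)d* -0.021. Leaving out each array, the difference ran from -0.17 to 0.19 for *Sxl* 143373_at, -0.10 to 0.095 for *tra2*, -0.21 to 0.045 for *dsx*, -0.015 to 0.024 for *ix*, -0.033 to 0.096 for *her*, -0.084 to 0.12 for *fl(2)d* and -0.14 to 0.035 for *vir*. For *fru* it ran from -0.017 to 0.036 (143505_at), -0.062 to 0.025 (150144_at) and -0.14 to 0.0070 (150145_at), and for list genes from -0.046 to 0.25 (*gro*), -0.23 to 0.011 (*B52*), -0.33 to 0.19 (*Doa*) and -0.038 to 0.0029 (*msl-2*), and without a change of sign from -0.18 to -0.086 (*fru* 150143_at), -0.19 to -0.058 (*snRNP-U1-70K*), 0.11 to 0.67 (*emc*), 0.050 to 0.12 (*Mettl14*), -0.12 to -0.070 (*U2af38*) and 0.059 to 0.15 (*Yp1*). The slopes that turned ran from -0.0040 to 0.023 (*fru* 143505_at), -0.040 to 0.060 (*fru* 150144_at), -0.064 to 0.024 (*her*), -0.017 to 0.077 (*tra*) and -0.051 to 0.10 (*vir*). The count of probe sets past the slope threshold, 4, was 0 at a level of at least 6, where 2027 of all 7121 probe sets passed. At that level *Sxl* 143373_at (limma, adjusted p = 0.0534) alone of the 4 was tested. With an array left out the count was 0 to 4, against 1 to 3938 of all 13966. The cause of these changes was not tested. Of the 13 probe sets, 8 had a mean under 6, where true changes can be understated. No detection calls were used, so the level of 6 is not a detection limit. Signals above it can also hold background.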
